A study of Mus musculus with 3 samples.

Results

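Conventional CD4 T cells of inflamed sciatic nerve were split by whether a transcript of the chemokine receptor gene Cxcr6 was detected, and the sides were compared within each library. A cell was a member if it held at most 5000 detected genes and at most 20% mitochondrial UMIs, at least 1 UMI of Cd3d, Cd3e or Cd3g and at least 1 of Cd4, none of Cd8a, Cd8b1, Foxp3 or Cd79a, and at most 1 UMI of the C1q genes. A UMI, a unique molecular identifier, stands for 1 captured transcript. Of 13770 cells, 13637 passed the gene and mitochondrial limits and 1636 were members. The sides were chosen by the measured Cxcr6 count itself. The Cxcr6-positive side, with 1 or more Cxcr6 UMIs, held 504 cells (264, 220 and 20 in libraries 1, 2 and 3). The Cxcr6-negative side held 1132 cells (364, 601 and 167). Cells without a Cxcr6 UMI can still express the gene below detection, so the sides are split by detection. The receptor protein was not measured.

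Immune cells (CD45+) had been isolated from the sciatic nerve of neuropathic NOD.AireGW/+ animals and sequenced at the 5′ end of transcripts. The genotype weakens, without abolishing, the function of Aire, the gene that lets the thymus display tissue antigens and delete self-reactive T cells, on the NOD background, and develop spontaneous autoimmune peripheral neuropathy. The 3 libraries form 1 group. A single mouse gave library 1, another gave library 2, and 2 mice were pooled in library 3 and are counted as 1 sample. All libraries carry the same genotype and disease state and no control group was analysed here, so no effect of Aire or of disease was tested.

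CXCR6 is a chemokine receptor of activated and tissue-dwelling T cells, and its only well known ligand, CXCL16, is made as a membrane-bound and a shed protein by macrophages, dendritic cells and other cells of inflamed tissue. T cells that recirculate through lymph nodes depend on other receptors: CCR7 helps to bring them in, and S1PR1, a receptor for sphingosine-1-phosphate, lets them out. KLF2 is a transcription factor that drives expression of S1pr1, and TCF-1, the product of Tcf7, maintains naive, follicular helper and stem-like T cells.

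The deposited counts summed to 22983991, 55120460 and 3399733 UMIs in libraries 1 to 3, and 36, 7 and 14 cell barcodes were shared by libraries 1 and 2, 1 and 3, and 2 and 3. Member cells were of similar depth on both sides, with medians of 3127.5 UMIs (positive) and 2908 UMIs (negative) for library 1, 2656.5 and 2537 for library 2, and 1789 and 1741 for library 3. For every comparison of levels, each cell with at least 1000 UMIs was thinned at random to 1000 UMIs, which left out 39 positive and 114 negative cells and kept 465 (231, 216 and 18) and 1018 (296, 580 and 142). The thinned UMIs were then summed per library and side, so the positive sum of library 3 held 18000 UMIs against 216000 to 580000 in the sums of libraries 1 and 2. Levels below are in CPM (UMIs relative to the total of their sum, on the usual CPM scale, after TMM scaling). In the positive sum of library 3, a single UMI corresponded to 48.1 CPM.

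The label conventional CD4 T cell was checked on genes the rule did not use. Trac, the constant part of the T cell receptor alpha chain, lay between 299 and 379 CPM in all 6 sums. Lck, the kinase that starts receptor signalling, lay between 537 and 819 CPM, and the co-receptor gene Cd28 between 433 and 855 CPM. Of 8 tested genes of CD4 T cell identity, Cd6, a receptor that tunes T cell activation, was higher on the positive side (log2 0.75, SE 0.17, edgeR adjusted p = 0.00237, and 0.591 without library 1 or 0.816 without library 2), and none was lower. Transcripts typical of other cells were present in part. Of 12 B cell genes, 3 were at 0 in all 6 sums, Pax5 and Cd22 among them, while Ighm, the IgM heavy chain gene, lay between 38.5 and 115 CPM. Of 14 Schwann cell and nerve genes, 10 were at 0, Sox10 among them, while the myelin genes Mbp, Cnp and Ncmap were found in every sum, at 48.1 to 84.7, 32.1 to 104 and 25.9 to 144 CPM. Lyz2, a gene of macrophages and monocytes, lay between 0 and 220 CPM, and Cd74, the invariant chain of MHC class II, between 505 and 1685 CPM.

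Cxcr6 itself defined the sides, and its values are given as a description. In library 1, 42.0% of member cells had a Cxcr6 UMI (exact 95% binomial interval 38.1 to 46.0). The share was 26.8% in library 2 (23.8 to 30.0) and 10.7% in library 3 (6.66 to 16.0), a mean of 26.5% ± 15.7 (SD, n = 3). The 3 intervals did not overlap at deposited depth. After thinning to 1000 UMIs the shares were 28.3%, 14.9% and 8.13%, in the same order. The intervals of libraries 2 and 3 then overlapped (12.5 to 17.6 and 4.40 to 13.5). Such intervals cover counting error only. B cells, which served as the background for free RNA, had a Cxcr6 UMI in 12 of 222 cells in library 1 (5.41%, median 3991.5 UMIs per cell), 2 of 360 in library 2 (0.556%, median 3124 UMIs) and 0 of 70 in library 3, which allows a share of up to 4.29%. No B cell had 2 or more. Among member cells, 83, 101 and 15 had exactly 1 Cxcr6 UMI, 44, 54 and 3 had 2, and 137, 65 and 2 had 3 or more, with highest counts of 20, 13 and 3. The share was 49.3% ± 17.7 (SD, n = 3) in CD8 T cells and 30.2% ± 8.4 (SD, n = 3) in CD4 T cells with a Foxp3 UMI.

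**Figure D1:**
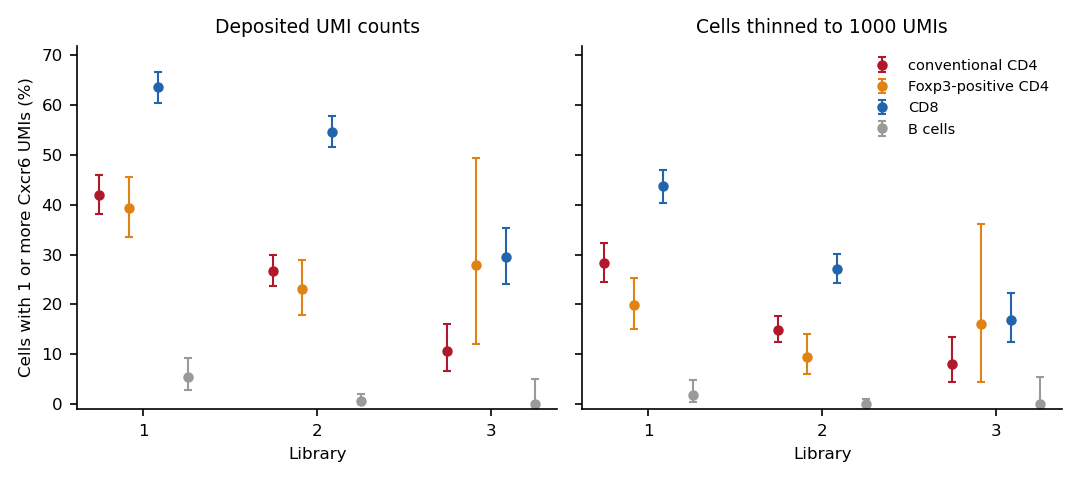
Percentage of cells with 1 or more Cxcr6 UMIs (vertical axis) in each library (horizontal axis) for conventional CD4, Foxp3-positive CD4, CD8 and B cells, at deposited depth (left) and after thinning every cell to 1000 UMIs (right). Points are shares and bars exact 95% binomial intervals. Conventional CD4 cells lie at 42.0%, 26.8% and 10.7% at deposited depth, above the B cells of the same library, which lie at 5.41% or less.

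The start regions of 3 genes are shown because they hold the gene that split the cells, a transcription factor that fell (Klf2) and a cytotoxic granule gene that rose (Nkg7). Each window runs 5′ to 3′ from 250 bases before to 50 bases after the RefSeq start on build GRCm38.p6, and all 3 lie on the + strand: Cxcr6 at chr9:123806227-123806526, Klf2 at chr8:72318812-72319111 and Nkg7 at chr7:43436888-43437187. Capitals mark matches on either strand to CACCC (the core of KLF sites), CTTTGA (TCF), TGTGGT (RUNX) and GGTGTGA (T-box).
Cxcr6: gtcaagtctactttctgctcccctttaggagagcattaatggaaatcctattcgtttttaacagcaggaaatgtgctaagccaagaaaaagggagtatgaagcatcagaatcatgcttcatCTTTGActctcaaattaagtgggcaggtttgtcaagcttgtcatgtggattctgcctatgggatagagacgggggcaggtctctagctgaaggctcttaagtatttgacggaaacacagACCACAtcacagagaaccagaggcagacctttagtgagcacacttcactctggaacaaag
Klf2: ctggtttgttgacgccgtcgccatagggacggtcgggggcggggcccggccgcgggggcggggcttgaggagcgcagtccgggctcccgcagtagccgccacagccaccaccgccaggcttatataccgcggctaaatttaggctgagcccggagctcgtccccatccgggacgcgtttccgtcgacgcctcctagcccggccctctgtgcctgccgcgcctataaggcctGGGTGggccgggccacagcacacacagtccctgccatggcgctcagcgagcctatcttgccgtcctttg
Nkg7: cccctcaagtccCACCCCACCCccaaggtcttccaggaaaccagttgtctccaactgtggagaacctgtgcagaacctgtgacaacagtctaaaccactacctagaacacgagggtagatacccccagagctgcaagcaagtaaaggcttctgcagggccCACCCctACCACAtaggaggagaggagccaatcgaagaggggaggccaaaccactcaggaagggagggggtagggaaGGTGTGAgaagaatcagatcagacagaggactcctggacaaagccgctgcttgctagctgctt
The Cxcr6 window held 1 TCF match, at position 122, and 1 RUNX match on the opposite strand, at position 241. The Klf2 window held 1 KLF match on the opposite strand, at position 232. The Nkg7 window held 3 KLF matches, at positions 13, 18 and 161, of which the first and second adjoin, 1 RUNX match on the opposite strand at position 168 and 1 T-box match at position 238. Such short matches are common: of 32851 windows of this length, 57.5% held the KLF letters, 16.8% the RUNX letters, 16.0% the TCF letters and 3.98% the T-box letters. Windows were at hand for 7 of the 12 genes with the largest rise and 7 of the 12 with the largest fall. The KLF letters stood in at least 1 window of 5 of the 7 genes in each set, and the matches are a description of these letters only.

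Cxcr6-positive conventional CD4 T cells had lower levels of the lymph node homing and egress genes Ccr7, Klf2 and S1pr1, and of Tcf7. Higher were the chemokine gene Ccl5, the inflammatory chemokine receptor gene Ccr2, the cytotoxic genes Nkg7, Gzmb and Gzmk, several inhibitory receptors and Il10. The sides were compared with edgeR's quasi-likelihood test with the library as a block, since both sides of a library come from the same mice. Of 3498 genes tested, 113 (3.23%) passed a Benjamini-Hochberg adjusted p of 0.05, of which 58 (1.66%) were higher and 55 (1.57%) lower on the positive side. At an unadjusted p under 0.05 there were 486. Of the 113 genes, 100 moved the same way in 3 of 3 libraries. In 66 of them the positive and negative sums did not overlap, a pattern found in 10.7% of all genes tested (4.4% with every positive sum above and 6.32% with every positive sum below). The number of calls depended on single libraries. Without library 1 it was 14, and without library 2 it was 6, while without library 3 it was 133. Of 68 called genes (those of the lists and the naming rule, and the receptor segment gene Trgv2), 5 stayed past the threshold whichever library was left out: Ccl5, Ccr7, Klf2, Nkg7 and S1pr1. A fit that ignored the pairing by library called 2 genes, Ccr7 and Trgv2, with 138 at an unadjusted p under 0.05, and DESeq2 called 17. Trgv2 passed the count filter through the positive side, so its calls are not read as results. Another random draw of the thinned UMIs called 121 genes, 72 of them among the 113. Of the 68 called genes, 49 were called in it, 2 were under its count filter (Sccpdh and Havcr2) and 17 missed the threshold with adjusted p values between 0.0506 and 0.453. The 17 were Ppt2, Tmem176a, Marcksl1, Cltc, Cd69, Bhlhe40, Ifnar2, Ctla4, Tnfsf11, Nfil3, Tyrobp, H2-Aa and 5 ribosomal protein genes. Among them Cd69 went from -0.67 to -0.36, Nfil3 from 0.78 to 0.45 and Tyrobp from -0.89 to -0.59.

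**Figure D2:**
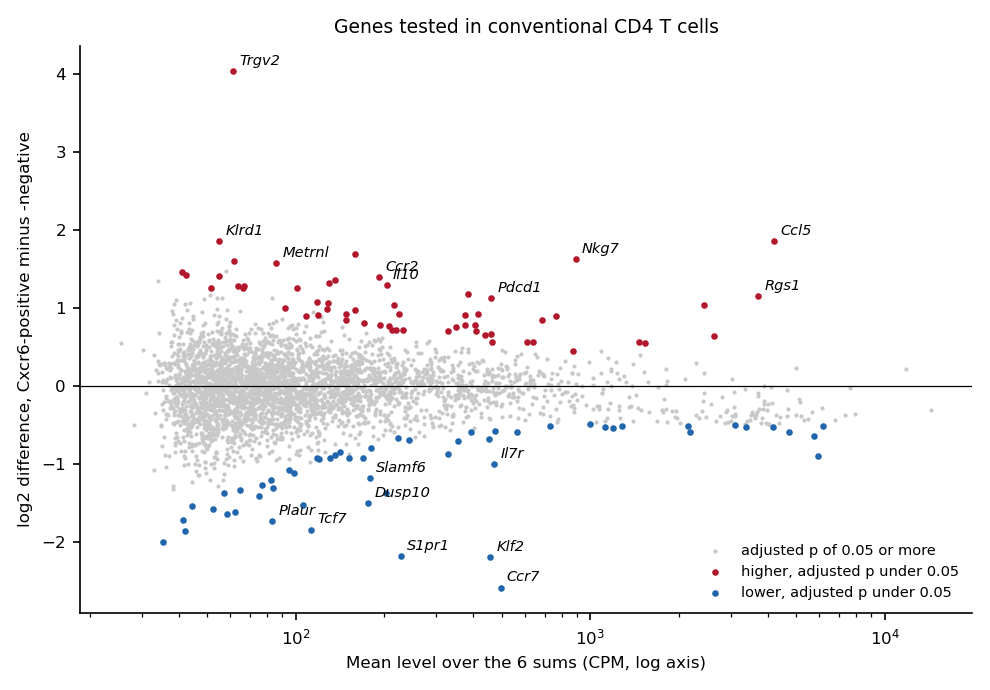
Log2 difference between Cxcr6-positive and Cxcr6-negative conventional CD4 T cells (vertical axis) against the mean level over the 6 sums in CPM (horizontal axis, log scale) for 3498 genes. Red and blue points are the 58 higher and 55 lower genes with an adjusted p under 0.05. Ccl5 is the most abundant of the labelled higher genes, and Ccr7, Klf2 and S1pr1 are the lowest points.

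Genes of lymphoid homing and egress were lower in the Cxcr6-positive cells. Of the 18 genes of this list, 12 passed the filter on low counts, 7 of these fell, none rose, and the median log2 difference of the 12 was -1.09, beside -0.02 over all genes tested. The 7 include Tcf7, Il7r and Slamf6, which are not themselves genes of homing or egress. Counts of list members, here and in the other lists, stand beside 1.66% of all genes tested that rose and 1.57% that fell. Ccr7, the receptor that guides T cells into lymph nodes, stood at 101, 106 and 241 CPM in the positive sums of libraries 1, 2 and 3 and at 739, 515 and 1275 CPM in the negative sums. Every positive value lay below every negative value. The log2 difference was -2.58 (SE 0.20, edgeR adjusted p = 9.78e-18). Klf2 stood at 270, 120 and 48.1 CPM against 1024, 714 and 570 CPM, again with no overlap (log2 -2.19, SE 0.18, edgeR adjusted p = 6.22e-17). S1pr1, the exit receptor, stood at 137, 62.6 and 0 CPM against 544, 325 and 297 CPM (log2 -2.17, SE 0.23, edgeR adjusted p = 3.50e-12). Leaving out 1 library at a time kept all 3 past the threshold.

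The thinned cells were also counted. In library 1 a Ccr7 UMI was found in 6.06% of positive and 29.4% of negative cells, and in library 2 in 7.87% and 21.0%. In library 3 it was found in 22.2% of the 18 positive cells and 36.6% of the negative cells, with exact binomial intervals that overlapped (6.41 to 47.6 and 28.7 to 45.1). B cells, which use CCR7 as well, had it in 46.9% to 68.4% of cells. A Klf2 UMI was found in 17.3% of positive and 38.5% of negative cells of library 1 and in 7.41% and 26.9% of library 2. For S1pr1 these were 11.7% and 30.4%, and 6.02% and 20.3%. In library 3, 1 of 18 positive cells had a Klf2 UMI and 0 of 18 an S1pr1 UMI, beside 25.4% and 19.0% of negative cells, and the intervals again overlapped (0.141 to 27.3 and 18.4 to 33.3 for Klf2, 0 to 18.5 and 12.9 to 26.5 for S1pr1).

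Tcf7 stood at 72.6, 53.0 and 0 CPM against 233, 207 and 112 CPM (log2 -1.84, SE 0.28, edgeR adjusted p = 1.45e-06). It kept its call without library 1, with an adjusted p of 0.0457, and not without library 2 (log2 -1.75, adjusted p = 0.235). Il7r, the receptor for the survival cytokine IL-7, stood at 395, 270 and 193 CPM against 687, 594 and 690 CPM (log2 -1.0, SE 0.16, edgeR adjusted p = 6.57e-06). Both genes were lower in every positive sum than in any negative sum. Slamf6, a surface receptor of stem-like and follicular helper T cells, had a log2 difference of -1.18 (SE 0.24, edgeR adjusted p = 4.98e-04) and Klf3, a relative of Klf2, one of -1.20 (SE 0.31, edgeR adjusted p = 0.0137). Lef1, a partner of Tcf7, had a log2 difference of -0.65 and an adjusted p of 0.366, and Foxo1, a regulator of Klf2, -0.56 and 0.410. Without library 1 or without library 2, Il7r (adjusted p = 0.0747 and 0.579), Slamf6 (0.327 and 0.579) and Klf3 (0.487 and 0.686) were past the threshold no longer.

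**Figure D3:**
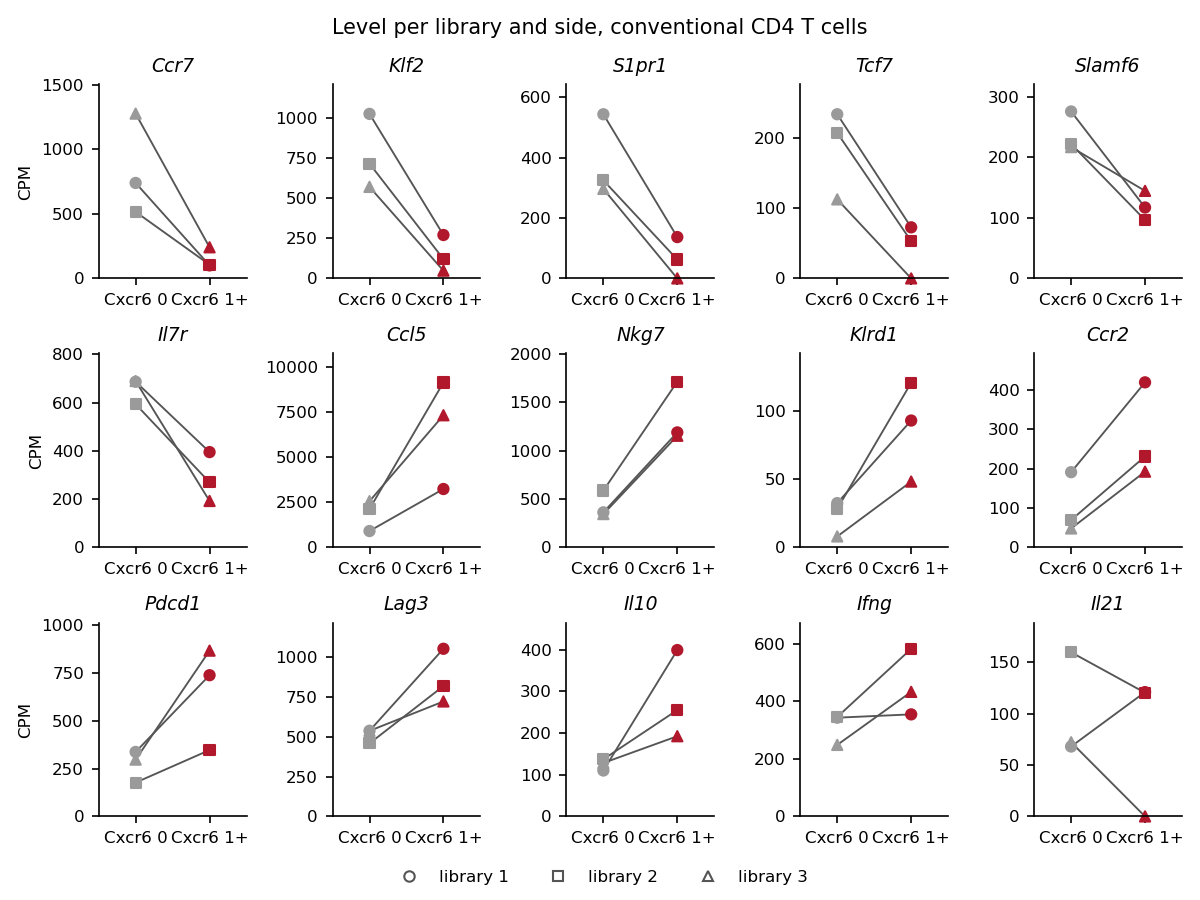
Level in CPM (vertical axes, each from 0) of 15 genes in the Cxcr6-negative (grey) and Cxcr6-positive (red) sums of each library, joined by a line per library. Ccr7, Klf2, S1pr1, Tcf7, Slamf6 and Il7r lie lower in all 3 positive sums and Ccl5, Nkg7, Klrd1, Ccr2, Pdcd1, Lag3, Il10 and Ifng higher, while Il21 is higher in 1 and lower in 2.

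The chemokine receptor genes moved in both directions. Of 9 tested genes of this list, 2 rose, Ccr2 among them, and 2 fell (Ccr7 and S1pr1, given above). Ccr2, the receptor for CCL2 that draws cells into inflamed tissue, stood at 419, 231 and 193 CPM in the positive and 191, 69.6 and 48.1 CPM in the negative sums (log2 1.40, SE 0.22, edgeR adjusted p = 2.17e-06). The sides did not overlap, although the lowest positive value lay just above the highest negative one. Ccr2 lost its call without library 2 (log2 1.24, adjusted p = 0.382). Cxcr3, the receptor of type 1 helper cells, had a log2 difference of -0.07 (SE 0.20, edgeR adjusted p = 0.945), which turned positive in 5 of the alternative settings. Cxcr5, the follicle-homing receptor, was under the count filter, with 4, 0 and 0 UMIs on the positive and 10, 9 and 3 on the negative side. The ligand gene Cxcl16 was also under it, with 4, 5 and 1 against 8, 12 and 2 UMIs.

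Of 5 tested chemokine genes made by T cells, Ccl5 rose and none fell. Ccl5, which encodes a chemoattractant of T cells and monocytes, was the most abundant of the genes named by the rule on size: it stood at 3234, 9132 and 7316 CPM in the positive and 907, 2126 and 2559 CPM in the negative sums. Each positive value lay above all 3 negative values (log2 1.85, SE 0.16, edgeR adjusted p = 1.10e-16). A Ccl5 UMI was found in 53.2%, 46.3% and 50% of positive cells and in 35.5%, 19.3% and 25.4% of negative cells. In B cells thinned to the same depth the shares were 24.5%, 7.78% and 14.9%, below those of the negative cells in every library. Ccl3 and Ccl4, related inflammatory chemokine genes, had log2 differences of 0.26 (adjusted p = 0.665) and 0.25 (adjusted p = 0.504).

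Several genes of the cytotoxic list were higher in the positive cells. Of 9 tested cytotoxic genes, 5 rose, Klrd1 among them, and none fell, beside 1.66% and 1.57% of all genes tested. Their median log2 difference was 0.81. Nkg7, a granule membrane protein needed for efficient killing, stood at 1190, 1715 and 1155 CPM against 363, 588 and 345 CPM (log2 1.63, SE 0.14, edgeR adjusted p = 5.50e-16). The sides did not overlap, and the call held without each library in turn. Klrd1, which encodes CD94, stood at 92.8, 120 and 48.1 CPM (23, 25 and 1 thinned UMIs) against 32.4, 28.2 and 8.02 CPM (10, 15 and 1 UMIs). It passed the count filter through the positive side, so no fold or test is given and its place among the 5 is a description. Gzmb, encoding granzyme B, stood at 145, 212 and 144 CPM against 77.8, 97.8 and 32.1 CPM (log2 1.08, SE 0.26, edgeR adjusted p = 0.00479). Gzmk, encoding granzyme K, rose by 0.81 (adjusted p = 0.0338) and Fasl, the death receptor ligand, by 0.78 (adjusted p = 0.0346). Without library 2 the adjusted p was 0.911 for Gzmb, 0.579 for Gzmk and 0.676 for Fasl, and without library 1 it was 0.183 for Gzmb, 0.554 for Gzmk and 0.552 for Fasl. Klrd1 was not tested without library 1, and without library 3 the values were 0.0752 for Gzmk and 0.0788 for Fasl. Prf1, encoding perforin, and Eomes were under the count filter. So was Gzma, encoding granzyme A, with 3, 7 and 0 thinned UMIs on the positive and 23, 3 and 1 on the negative side.

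The list of type 1 helper genes shares Nkg7 and Ccl5 with those above. Of its 11 tested genes, 4 rose, these and Id2 among them, and none fell, with a median of 0.47. Tbx21, encoding the type 1 master regulator T-bet, stood at a mean of 128 ± 59.1 CPM (SD, n = 3) on the positive and 38.9 ± 18.9 CPM on the negative side, higher in 3 of 3 libraries. It was not called. As it passed the count filter through the positive side, no fold or test is given. Id2, a transcription factor of effector cells, rose by 0.72 (SE 0.20, edgeR adjusted p = 0.0218) but was lower in the positive sum of library 3, at 96.3 against 136 CPM. Without library 1 and without library 2 its adjusted p was 0.493 and 0.997.

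Inhibitory receptors were higher on the positive side. Of 10 tested, 6 rose (Pdcd1, Ctla4, Lag3, Havcr2, Tigit and Entpd1), 1 fell (Cd200) and the median was 0.57. Pdcd1, which encodes PD-1, stood at 738, 347 and 866 CPM against 337, 177 and 297 CPM, with no overlap (log2 1.12, SE 0.17, edgeR adjusted p = 6.01e-07). Lag3, a receptor for MHC class II, stood at 1053, 819 and 722 CPM against 538, 459 and 537 CPM (log2 0.85, SE 0.14, edgeR adjusted p = 6.93e-06), also with no overlap. Havcr2, encoding TIM-3, stood at low levels of 96.8, 53.0 and 48.1 CPM (24, 11 and 1 thinned UMIs) against 32.4, 24.4 and 0 CPM (10, 13 and 0 UMIs). It passed the count filter through the positive side, so no fold or test is given and its place among the 6 is a description. Entpd1, encoding the ectoenzyme CD39, stood at 129, 135 and 0 CPM against 55.1, 48.9 and 32.1 CPM (log2 1.28, adjusted p = 0.00654). Ctla4 rose by 0.56 (adjusted p = 0.0126) but was lower in the positive sum of library 3, at 963 against 1019 CPM. Tigit rose by 0.57 (adjusted p = 0.0126) and was higher in 3 of 3 libraries. In both genes the sides overlapped. Of the 6 that rose, Havcr2 and Entpd1 were under the count filter without library 1, and the others had adjusted p values of 0.126 (Pdcd1), 0.308 (Lag3), 0.552 (Ctla4) and 0.632 (Tigit). Without library 2 these 6 ranged from 0.145 (Pdcd1) to 0.995 (Ctla4).

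Among helper cytokine genes, Il10 was higher on the positive side and Il21 and Ifng did not pass the test. Of 10 tested, 1 rose and none fell, with a median of 0.03. Il10 encodes an often anti-inflammatory cytokine that the authors describe as disease-promoting in this neuropathy model. Il10 stood at 399, 255 and 193 CPM in the positive and 110, 137 and 128 CPM in the negative sums, with no overlap (log2 1.29, SE 0.21, edgeR adjusted p = 8.92e-06). Its UMIs were found in 17.3%, 15.3% and 16.7% of positive and in 5.41%, 8.28% and 7.04% of negative cells, beside 1.42%, 0.278% and 0% of B cells. The call was lost without library 1 (log2 0.86, adjusted p = 0.433) and without library 2 (log2 1.60, adjusted p = 0.145).

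Il21, which encodes a cytokine of follicular and peripheral helper cells, stood at 121, 120 and 0 CPM against 68.0, 160 and 72.2 CPM. It was higher in 1 positive sum and lower in 2 (log2 0.01, SE 0.27, edgeR adjusted p = 0.990), and its direction changed with the processing. Ifng, the type 1 cytokine, was higher in all 3 positive sums, with means of 457 ± 116 CPM (SD, n = 3) and 313 ± 55.4 CPM (log2 0.47, SE 0.17, edgeR adjusted p = 0.120). Il21r, the IL-21 receptor gene, had a log2 difference of 0.18 (SE 0.21, edgeR adjusted p = 0.817). Read from the cytokine side, 17 of 32, 13 of 58 and 0 of 5 cells with an Il21 UMI were Cxcr6-positive, beside 43.8%, 27.1% and 11.3% of all cells thinned. For Il10 these were 40 of 56, 33 of 81 and 3 of 13 cells, and for Ifng 46 of 90, 59 of 158 and 4 of 19. UMIs of all 3 cytokines in 1 cell were found in 2, 2 and 0 positive and 0, 2 and 1 negative cells. Il17a, outside the naming rule and picked after its values were seen, had 6, 7 and 0 UMIs on the positive side and none on the negative side, under the count filter.

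Genes of follicular helper T cells moved in both directions. Of 9 tested, Pdcd1 rose and 4 fell (Tcf7, Slamf6, Tnfsf8 and Cd200), and the median was -0.47. Tnfsf8, encoding CD30 ligand, stood at 323, 101 and 337 CPM against 499, 282 and 433 CPM (log2 -0.86, SE 0.19, edgeR adjusted p = 0.00237). Cd200, encoding a ligand that restrains myeloid cells, stood at 331, 275 and 241 CPM against 418, 447 and 642 CPM (log2 -0.59, SE 0.17, edgeR adjusted p = 0.0363). Without library 1, without library 2 and without library 3 the adjusted p of Cd200 was 0.313, 0.994 and 0.0919, and for Tnfsf8 the first and second were 0.308 and 0.994. Icos, the costimulatory receptor of helper cells, was at means of 1137 ± 284 and 1215 ± 313 CPM (SD, n = 3; log2 0.00, SE 0.14, edgeR adjusted p = 0.993). Bcl6, the master regulator of these cells, was under the count filter, with 4, 2 and 1 UMIs on the positive and 10, 8 and 6 on the negative side.

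Of 25 tested transcription factors of T cell fate, 5 rose and 2 fell (Klf2 and Tcf7). Maf, an activator of Il10 and Il21, stood at 569, 467 and 529 CPM against 259, 340 and 281 CPM, with no overlap (log2 0.78, SE 0.17, edgeR adjusted p = 0.00111). Without library 1 and without library 2 its adjusted p was 0.529 and 0.373. Ikzf3 rose by 0.85 but was lower in the positive sum of library 3, at 48.1 against 160 CPM. Nfil3 rose by 0.78 and Bhlhe40 by 0.46, both in 3 of 3 libraries. The adjusted p values of Ikzf3, Nfil3 and Bhlhe40 were 0.0240, 0.0347 and 0.0470. None of these kept its call without library 1 (0.566, 0.181 and 0.500) or without library 2 (0.994, 0.997 and 0.997), and Nfil3 did not keep it without library 3 (0.0996). Prdm1, encoding the effector regulator Blimp-1, was higher in 3 of 3 libraries, with 19, 17 and 1 thinned UMIs against 14, 23 and 4, and was not called. As it passed the count filter through the positive side, no fold or test is given.

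The list of tissue retention genes had no common direction. Of 19 tested, 3 rose (Rgs1, Rgs16 and Bhlhe40), 2 fell (Cd69 and Itgb1) and the median was 0.01. Rgs1, which dampens signals from chemokine receptors, stood at 2779, 3641 and 8952 CPM against 1244, 1641 and 4011 CPM (log2 1.16, SE 0.14, edgeR adjusted p = 2.73e-09). It was higher within every library, while the sides overlapped because all values of library 3 were high. Rgs16, a relative, rose by 0.91 (SE 0.17, edgeR adjusted p = 1.64e-04). Cd69, which makes the cell lose S1PR1 from its surface, stood at 367, 116 and 0 CPM against 538, 203 and 112 CPM, and so fell (log2 -0.67, SE 0.20, edgeR adjusted p = 0.0394). The integrin gene Itgb1 fell by 0.50 (SE 0.14, edgeR adjusted p = 0.0300), and Itgae, encoding the resident-memory integrin CD103, did not pass (log2 0.96, SE 0.41, adjusted p = 0.235). Without library 1 and without library 2 the adjusted p was 0.00618 and 0.382 for Rgs1, 0.308 and 0.579 for Rgs16, 0.500 and 0.994 for Cd69, and 0.618 and 0.995 for Itgb1. Without library 3 that of Cd69 was 0.0580.

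Among the other genes of the rule on size, Metrnl encodes a secreted protein of activated immune cells. It stood at 64.5, 144.5 and 192.5 CPM (16, 30 and 4 thinned UMIs) against 22.7, 50.75 and 40.1 CPM (7, 27 and 5 UMIs). Ctla2a, encoding a cysteine protease inhibitor, rose by 1.37 (SE 0.25, edgeR adjusted p = 1.01e-04). Camk2n1, encoding an inhibitor of the kinase CaMKII, stood at 48.4, 111 and 144 CPM against 25.9, 33.8 and 8.02 CPM. Ppt2 stood at 101, 77.1 and 48.1 CPM against 38.9, 24.4 and 40.1 CPM, and Sccpdh at 72.6, 81.9 and 144 CPM against 22.7, 45.1 and 16.0 CPM. Tmem176a, also among the 12 largest rises, stood at 84.7, 120 and 96.3 CPM against 29.2, 60.15 and 8.02 CPM. Metrnl, Camk2n1, Ppt2, Sccpdh and Tmem176a passed the count filter through the positive side, so no fold or test is given for them. Plaur, encoding the urokinase receptor, fell by 1.72 (SE 0.36, edgeR adjusted p = 8.92e-04), and Dusp10, a phosphatase of the stress kinases, fell by 1.5 (SE 0.26, edgeR adjusted p = 2.85e-05). Tespa1, a receptor signalling adaptor, stood at 52.4, 19.3 and 0 CPM against 119.9, 101.5 and 56.15 CPM. Log2 differences were -1.57 for Marcksl1, -1.52 for Rflnb, -1.40 for Cltc, the clathrin heavy chain gene, and -1.37 for Gramd3. Nrn1 stood at 36.3, 28.9 and 0 CPM against 126, 62.0 and 120 CPM. Tespa1 and Nrn1 passed the count filter through the negative side, so no fold or test of the sides is given for them. These 14 genes all moved the same way in 3 of 3 libraries. Of those with a fold given, none stayed past the threshold without library 2, with adjusted p values between 0.276 (Gramd3) and 0.829 (Cltc) where tested. Without library 1 only Dusp10 (0.0395) and Rflnb (0.0442) did. Cltc was called in 5 of the 18 alternative settings that tested it, with log2 differences between -1.53 and -0.24, and Marcksl1 in 6 of 13, between -1.65 and -0.72. In another random draw they stood at -0.51 (adjusted p = 0.453) and -1.02 (0.0566).

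Among S100, annexin and galectin genes, 4 of 14 tested rose (Lgals3, S100a4, S100a6 and Lgals1) and none fell, with a median of 0.29. Lgals3, encoding galectin-3, stood at 278, 727 and 626 CPM against 162, 288 and 225 CPM (log2 1.18, SE 0.18, edgeR adjusted p = 6.01e-07). S100a4, a calcium-binding protein of migrating and memory cells, rose by 0.90 (SE 0.14, edgeR adjusted p = 1.89e-06). Both were higher within every library, and the sides overlapped because library 1 was lower on both. S100a6 rose by 0.65 and Lgals1 by 0.57 (adjusted p = 0.00239 and 0.0102). Without library 2 the adjusted p was 0.579 for Lgals3 and S100a4 and 0.994 for S100a6 and Lgals1, and without library 1 only Lgals3 (0.0214) kept its call, beside 0.0824 for S100a4 and 0.183 for the other two. Cytosolic ribosomal protein genes took 19.0%, 22.1% and 23.1% of UMIs on the positive and 21.6%, 27.1% and 28.9% on the negative side. Of 80 tested, 10 fell and none rose, and the median of -0.38 moved to -0.36 and -0.25 under other scalings. The largest falls were those of Rps29 (log2 -0.64, adjusted p = 0.00973) and Rps28 (log2 -0.59, adjusted p = 0.0141). None of the 10 stayed past the threshold without library 1 (0.179 for both of these) or without library 2 (0.994).

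In lists of activation, division and presentation no gene passed the threshold: 0 of 15 immediate early genes, 0 of 14 interferon-stimulated genes, 0 of 6 cell cycle genes, 0 of 12 genes of glycolysis and hypoxia and 0 of 17 of MHC class I presentation. With 3.23% of all genes tested called, counts of 0 in lists of this size lie near the background. A single called gene in another list is likewise not read as a result about that list. Their medians lay between -0.19 and 0.18. Of 15 cytokine receptor genes, Il2rb, a chain of the IL-2 and IL-15 receptors, rose by 0.78 (adjusted p = 0.00110), and Ifnar2 fell by 0.92 (adjusted p = 0.0322), beside Il7r above. Of 15 costimulation and TNF family genes, Fasl rose and Tnfsf8 and Tnfsf11 fell, the last by 0.68 (adjusted p = 0.0467). Without library 1 and without library 2, Il2rb (0.255 and 0.911), Ifnar2 (0.439 and 0.95) and Tnfsf11 (0.552 and 0.994) lost their calls, and Tnfsf11 also lost it without library 3 (log2 -0.71).

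**Figure D4:**
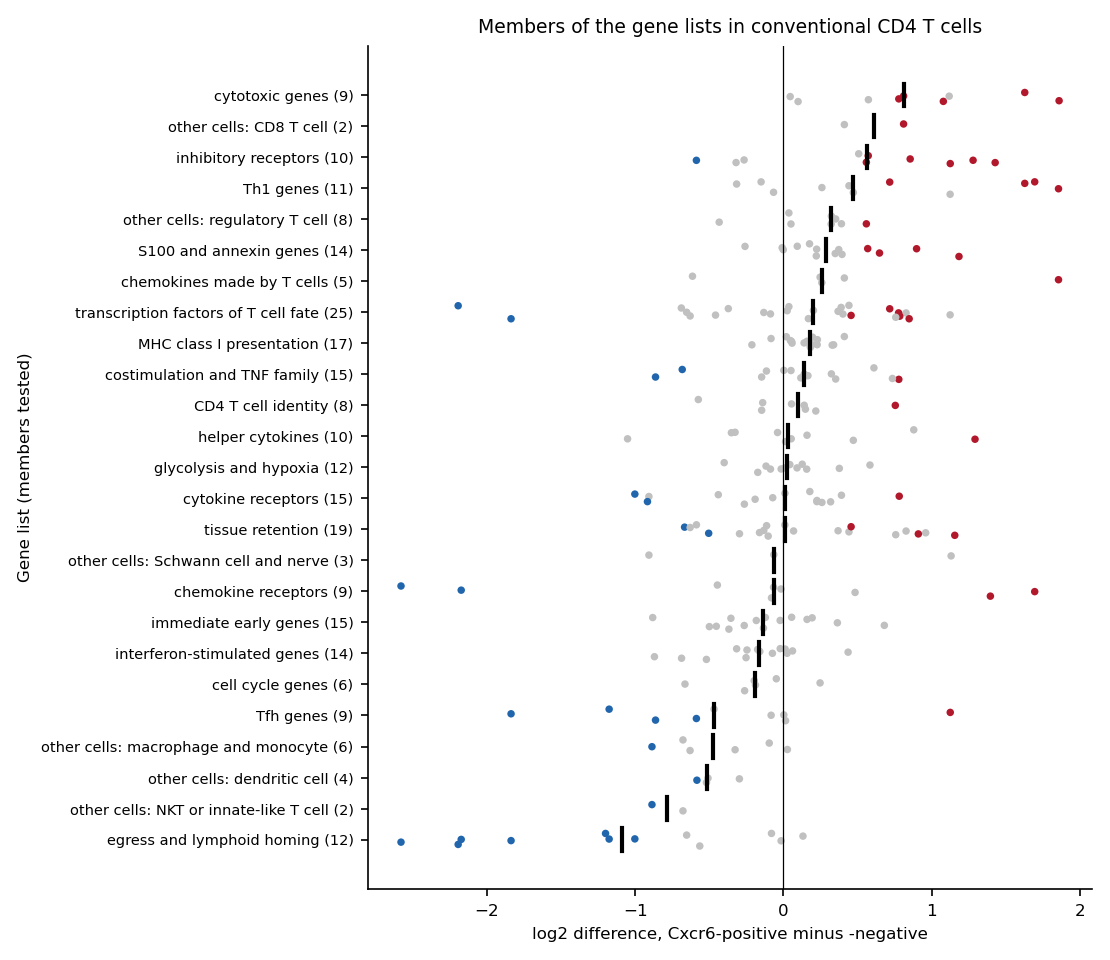
Log2 difference (horizontal axis) of every tested member of each gene list (vertical axis, with the number tested). Red and blue points are genes past an adjusted p of 0.05, grey points are not, and black bars are list medians. The list of egress and lymphoid homing genes lies lowest, with a median of -1.09, and the list of cytotoxic genes highest, at 0.81.

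Markers of other cell types were read beside these lists. Of 8 regulatory T cell genes tested, Ctla4 rose, while Ikzf2 and Il2ra had log2 differences of 0.04 (adjusted p = 0.974) and 0.39 (adjusted p = 0.716). The summed level of this list was 3658 to 5731 CPM on the positive and 3222 to 4296 CPM on the negative side. Of 6 macrophage and monocyte genes, Tyrobp fell by 0.89 (adjusted p = 0.0322), with a summed level of 914 to 1748 CPM against 987 to 1910 CPM. Of 4 dendritic cell genes, H2-Aa fell by 0.58 (adjusted p = 0.0240), and the sum was 1855 to 3225 against 1468 to 3273 CPM. Without library 1 and without library 2 the adjusted p was 0.899 and 0.579 for Tyrobp and 0.846 and 0.997 for H2-Aa. In library 3 the positive sum of the dendritic cell list lay above the negative one, and in libraries 1 and 2 below. Of the CD8 T cell list, Cd8a and Cd8b1 were at 0 by the rule and Gzmk rose, with sums of 323 to 481 against 186 to 246 CPM. The innate-like list had 2 tested genes, of which Tyrobp fell, with Trav11 at 0, Zbtb16 at 1 UMI over all sums, and summed levels of 193 to 337 against 144 to 496 CPM. B cell genes summed to 86.7 to 105 against 72.2 to 143 CPM, and Schwann cell and nerve genes to 169 to 241 against 144 to 207 CPM. Without cells holding myeloid or B cell UMIs 86 genes were called, without cells holding Il2ra or Ikzf2 UMIs 111, and without innate-like cells 129.

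Trgv2, a variable segment of the T cell receptor gamma chain, was picked after its values were seen, since the naming rule leaves receptor genes out. It stood at 76.6, 130 and 144 CPM (19, 27 and 3 thinned UMIs) against 9.72, 5.64 and 0 CPM (3, 3 and 0 UMIs). It passed the count filter through the positive side, so no fold or test is given. In the deposited counts of the same cells, before thinning, a UMI was found in 32 of 231, 31 of 216 and 2 of 18 positive cells, and in 12 of 296, 10 of 580 and 2 of 142 negative cells. In B cells it was found in 2 of 212, 1 of 360 and 0 of 67. A Trdc UMI, of the delta chain constant region, was found in 5 and 1 of the cells with Trgv2 on the positive and negative side of library 2 and in none of the others.

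The threshold of 1 Cxcr6 UMI was looked at through the cells on either side of it, as a description, in CPM of the thinned UMIs with no scaling. In library 1, cells with 0, 1, 2 and 3 or more Cxcr6 UMIs (296, 67, 37 and 127 cells) had Klf2 levels of 1068, 567, 459 and 94.5 CPM. The corresponding values of library 2 (580, 98, 54 and 64 cells) were 655, 163, 92.6 and 62.5 CPM. Cells with a single UMI thus lay between those with none and those with more. Ccr7 stood at 770, 209, 81.1 and 63.0 CPM in library 1, while library 2 had 472, 102, 148 and 62.5 CPM. Ccl5 went from 946 through 2179 and 3081 to 4268 CPM in library 1 and from 1950 through 6367 and 9722 to 11672 CPM in library 2. Il10 did not follow this order beyond the first UMI, at 115, 418, 432 and 433 CPM in library 1, while library 2 had 126, 316, 148 and 219 CPM. In library 3, 13 cells had 1 UMI, too few to order. When the positive side was held to 2 or more Cxcr6 UMIs, 44 genes were called.

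CD8 T cells of the same libraries were split in the same way, to see where the difference between the sides itself differed. They were 1235 Cxcr6-positive and 982 Cxcr6-negative cells, of which 1170 and 902 were thinned. Of 4724 genes tested, 9 (0.191%) differed between conventional CD4 and CD8 T cells in an interaction test (edgeR, adjusted p under 0.05). Ccl5 rose by 1.83 in CD4 and 0.87 in CD8 cells (adjusted p of the difference = 0.00887), and Nkg7 by 1.61 and 0.80 (0.0129). Ctla2a differed with 1.35 and -0.12 (5.68e-04). The falls of the homing and egress genes and of Tcf7 were not shown to differ: Ccr7 had -2.59 and -3.10 (0.977), S1pr1 -2.19 and -1.78 (0.995), Klf2 -2.21 and -1.42 (0.213) and Tcf7 -1.85 and -1.55 (0.995). Pdcd1 had 1.11 and 1.20 (0.995). Without library 1 there were 5 calls and without library 2 there were 4. Ccl5 stayed past the threshold without library 1 (0.00182) and not without library 2 (log2 0.68), and Nkg7 in neither case (log2 0.86 and 0.90).

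CD4 T cells with a Foxp3 UMI, the regulatory T cells of this rule, were 167 positive and 362 negative. The positive side of library 3 held 7 cells and was left out, so 2 libraries gave the values of this class. Of 3471 genes tested, 13 (0.375%) differed from conventional CD4 cells in the same kind of test. Rgs1 rose by 1.13 in conventional and by 0.10 in Foxp3-positive cells (adjusted p of the difference = 0.00650), and Marcksl1 had -1.57 and 1.01 (0.00650). Ccl5 had 1.83 and 1.15 (0.367), Il10 1.28 and 0.90 (0.973) and S1pr1 -2.18 and -2.06 (0.991). In library 2 the positive Foxp3-positive cells were deeper than the negative ones before thinning, with medians of 7941 and 3774 UMIs. Without library 1 no gene of this comparison was called, and without library 2 there were 4, with 1 library of Foxp3-positive cells on both sides left in each case. The size of the difference between the classes was then 0.89 and 1.13 for Rgs1, beside 1.04 with all libraries, and -2.66 and -2.51 for Marcksl1, beside -2.58.

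**Figure D5:**
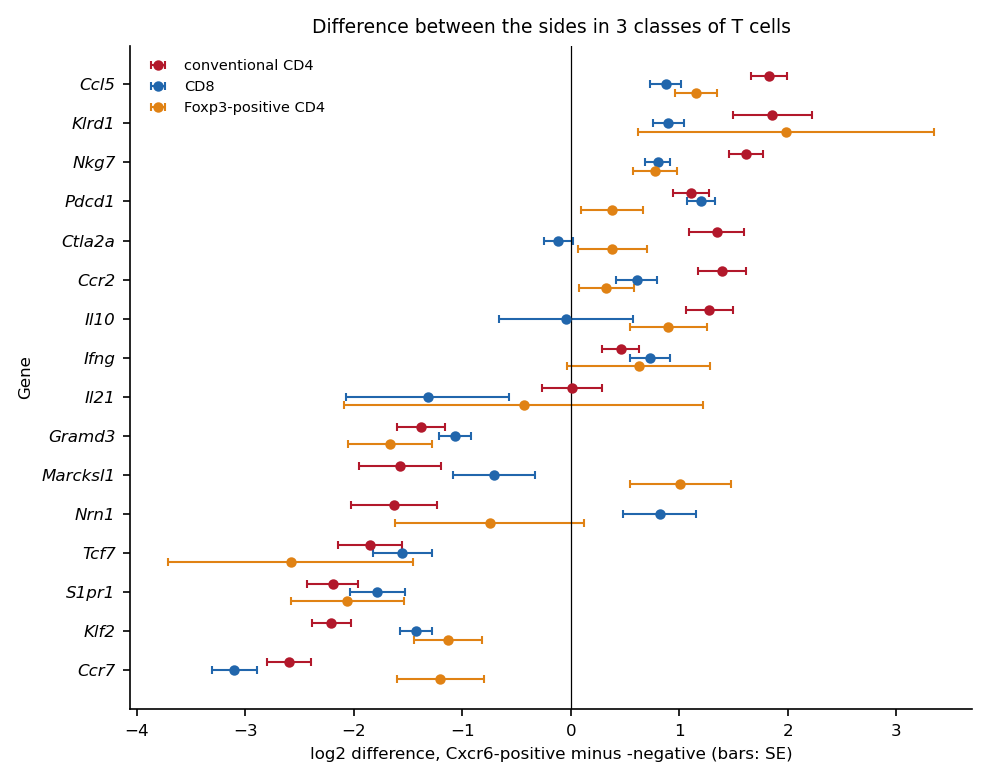
Log2 difference between Cxcr6-positive and Cxcr6-negative cells (horizontal axis) for 16 genes (vertical axis) in conventional CD4 (red), CD8 (blue) and Foxp3-positive CD4 T cells (orange), with bars of 1 SE. Ccr7, Klf2, S1pr1 and Tcf7 lie below 0 in all 3 classes, and Nkg7 and Ccl5 lie above 0, at 1.61 and 1.83 in conventional CD4 cells.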

How the data were processed

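The authors sequenced CD45+ cells of sciatic nerves with 10x Genomics 5′ gene expression, aligned reads with Cell Ranger (5.0.1 for library 1, 6.1.2 for libraries 2 and 3, per the file headers) to mm10, and deposited unnormalized UMI counts, 1 matrix of 32285 genes by cells per library. Library 1 came without a gene list among the files used here and took the row order of the others, which its row totals matched with Spearman 0.9501 and 0.929 across genes (0.362 and 0.321 when shifted by 1 row). Gene names are those of the matrices. Paired receptor sequences were not used here.

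Cells were chosen by the rule, thinned without replacement to 1000 UMIs (seed 1) and summed per library and side. Doublets were kept, since Scrublet (scanpy 1.11.5) marked 0, 0 and 2 cells with its automatic threshold and was judged not to have worked. An alternative left out the 118, 545 and 19 cells with the highest scores, among them 3, 18 and 3 members. The 12 genes of the rule were left out of the test. edgeR 4.0.16 (R 4.3.3) fitted counts with TMM, its filterByExpr filter, the library as a block, and p-values were adjusted over every gene tested (Benjamini-Hochberg). The block is set by origin, as both sides of a library come from the same mice. The SE is the log2 difference over the root of F. Interaction tests blocked on library and class. DESeq2 1.42.0 was an alternative. The fits were tested on simulated data with known changes, in which each gene had 1 mean level over all libraries. At a simulated log2 difference of 1, 69.7% of changed genes were recovered in the main comparison. The shares were 25% against CD8 and 13.8% against Foxp3-positive cells. At 2 they were 100%, 77.7% and 67.4%. A gene without a call in the comparisons of classes is thus not shown to be equal.

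Named genes were the 12 largest changes in each direction with at least 50 CPM and the same direction in 3 of 3 libraries, receptor and ribosomal genes left out, a fixed set, and called members of the lists. Some of these genes are not reported here. Members and lists were chosen with earlier results of these data known. With 3 pairs a sign-flip permutation test of 1 gene cannot go below a two-sided p of 0.25. With the library as a block, p-values concern the difference between the sides within libraries, and not the spread of levels between them. They rest largely on a spread that edgeR shares across genes, since 3 pairs say little about the spread of 1 gene. Promoter windows are from RefSeq on GRCm38.p6.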

Additional observations from a re-analysis of the deposited data

Results flagged for a closer look

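The difference between Cxcr6-positive and Cxcr6-negative cells was set against the same difference in CD8 T cells and in Foxp3-positive CD4 T cells, and 17 such comparisons of named genes passed the interaction test of edgeR (adjusted p under 0.05). Each value is the log2 difference in conventional CD4 cells minus that in the other class. Against CD8 T cells, Ccl3, an inflammatory chemokine gene, differed by -1.83 (0.25 in CD4 and 2.08 in CD8 cells, adjusted p = 6.82e-08) and Ccl4, its close relative, by -0.86 (0.24 and 1.10, adjusted p = 0.00783). Nrn1, which passed the filter of the main comparison through the negative side, differed by -2.45 (-1.63 and 0.82, adjusted p = 0.00193). Ctla2a differed by 1.46 (adjusted p = 5.68e-04), Ccl5 by 0.95 (adjusted p = 0.00887) and Nkg7 by 0.82 (adjusted p = 0.0129). The levels of Ccl5 were far higher in CD8 cells on both sides. Without library 2, Ccl3 kept its call (adjusted p = 0.00407), while Ccl4, Ccl5, Ctla2a and Nkg7 did not. Without library 1, Ccl3 (0.00418), Ccl5 (0.00182) and Ctla2a (0.0304) kept theirs, and Nkg7 and Ccl4 did not, with Ccl4 at -0.52.

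Against Foxp3-positive CD4 T cells, 7 genes of antigen presentation and myeloid cells differed downward. H2-Eb1 differed by -1.62, H2-Aa by -1.31, H2-Ab1 by -1.39 and Cd74 by -1.29, all 4 genes of MHC class II presentation, with differences of -0.53, -0.57, -0.51 and -0.27 in conventional and 1.09, 0.73, 0.87 and 1.02 in Foxp3-positive cells. Il1b differed by -2.26 (adjusted p = 7.93e-04), Spp1 by -4.10 (adjusted p = 0.00198) and Tyrobp by -1.49 (adjusted p = 0.0302). Ccl4 differed by -1.85 (adjusted p = 3.10e-05), Plac8 by -1.78 (adjusted p = 0.0276), Marcksl1 by -2.58 and Rgs1 by 1.04 (adjusted p = 0.00650 for both). Foxp3-positive cells on the positive side were deeper before thinning, at a median of 7941 against 3774 UMIs in library 2 and 4796 against 3545 in library 1, and the part of this in the result was not tested. Without library 1 none of these genes was called. Cd74 then went to -0.17, H2-Aa to -0.50, H2-Ab1 to -1.06, H2-Eb1 to -1.14, Ccl4 to -0.93 and Plac8 to -0.90, and Tyrobp turned to 0.10. Without library 2, H2-Eb1 (-2.71, adjusted p = 0.0438), Ccl4 (-2.72) and Tyrobp (-2.95, adjusted p = 0.0467 for both) were called, and without library 3 Marcksl1, Plac8 and Tyrobp were not. The calls outside the naming rule, picked after their values were seen, were the receptor genes Igkc, Trgv2 and Trbv19 against CD8 cells and Igkv3-4 and the chemokine gene Cxcl2 against Foxp3-positive cells. Trgv2 is only named, since it passed the filter of the main comparison through the positive side. Without library 1, Trbv19 turned from -1.49 to 0.38 and Igkc went from 4.18 to 1.43.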

How the results depend on the processing

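The library block was part of the comparison, and without it the count of genes that differed went from 113 to 2, and from 9 and 13 to 0 and 0 in the comparisons with CD8 and Foxp3-positive CD4 cells (no replicate block). The 113 genes became 66 with thinning to 600 UMIs, 292 with no thinning, 175 (56 higher, 119 lower) with sides set from the thinned Cxcr6 count, 44 with 2 or more Cxcr6 UMIs, 208 with no scaling, 17 with DESeq2, 35 with no filter on low counts, and 6 to 133 with 1 library left out. Of the 113, 102 of 103 still tested kept their direction at 600 UMIs, and all tested kept it in the other settings. The 9 genes against CD8 cells became 98 with no thinning, 3 with DESeq2 and 4 to 10 with 1 library left out. The 13 against Foxp3-positive cells became 3 at 600 UMIs, 56 with no thinning, 1 with DESeq2 and 0 to 14 with 1 library left out. The share of cells with a Cxcr6 UMI ranged from 12.6% to 34.4%. Ccr7 was called in all 20 alternatives, Klf2, S1pr1 and Nkg7 in 19, Ccl5, Tcf7, Lgals3 and Dusp10 in 18, Pdcd1 in 17 and Il10 in 16. 4 genes without a call changed sign. Il21 (0.01) went to -0.35 at 2000 UMIs, -0.0348 without dividing cells, -0.0314 with DESeq2 and -0.0831 with no filter, and ranged from -0.48 to 0.57 with 1 library left out. Il21r (0.18) went to -0.0992 at 600 UMIs, -0.0397 with 2 or more Cxcr6 UMIs and -0.12 without innate-like cells, and ranged from -0.058 to 0.59 with 1 library left out. Cxcr3 (-0.07) went to 0.0367 at 2000 UMIs, 0.0549 with no thinning, 0.0022 with no scaling and 0.0229 without the replicate block, and ranged from -0.18 to 0.0228. Icos (0.0023) went to -0.0913 with 2 or more Cxcr6 UMIs, -0.0227 without innate-like cells, -0.0229 without cells with Il2ra or Ikzf2 UMIs, -0.0302 with DESeq2, -0.19 with no filter and -0.0776 without the replicate block, and ranged from -0.11 to 0.0649. The cause of these changes was not tested.

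Depth limited library 3, whose positive side held 18 cells, and genes of under about 50 CPM there rest on single UMIs. Cxcr6-negative cells include cells whose Cxcr6 transcripts were missed.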
